A study of Mus musculus with 10 samples.

Results

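The transcription factor Nrf2 (gene Nfe2l2), its inhibitor Keap1 and 8 redox genes that Nrf2 is known to drive were followed in mouse liver. Every probe set of the array was taken whose annotation gives exactly 1 gene symbol equal to Nfe2l2, Keap1, Nqo1, Gclc, Gclm, Txnrd1, Srxn1, Prdx1, Gsr or Ugdh, whatever its level. This gave 19 of 45101 probe sets, for 9 of the 10 genes. All 5 probe sets that list Prdx1, a peroxiredoxin gene, also list a second symbol, so Prdx1 was not analysed here.

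Total RNA came from the livers of 10 female C57BL/6 mice, 1 array per animal, all 3 months old. In 5 animals the mouse Apoe gene had been replaced on both alleles by human APOE3 (B6.129P2-Apoetm2(APOE*3)Mae N8) and in 5 by human APOE4 (B6.129P2-Apoetm3(APOE*4)Mae N8). The human isoforms, forms of the lipoprotein component apolipoprotein E, were under control of the murine Apoe promoter, so both groups lacked mouse Apoe, and neither unmodified mice nor mice on ordinary chow were part of the comparison. All 10 animals had eaten a diet that held 2 g of cholesterol per kg and drew 41% of its energy from milk fat, for 6 weeks by the design text and for 2 months by the growth protocol. The question addressed is whether hepatic expression of these genes differed between APOE4 and APOE3 animals.

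Under resting conditions Keap1 holds Nrf2 in the cytoplasm and delivers it to a ubiquitin ligase. Oxidants and electrophiles modify Keap1, so that newly made Nrf2 escapes, enters the nucleus and, paired with a small Maf protein, binds antioxidant response elements near its target genes. In liver the targets make and recycle glutathione and thioredoxin, reduce quinones and supply precursors for conjugation, and much of the control of Nrf2 is exerted on the protein, which an array does not measure.

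The core of that element was searched as TGACNNNGC on both strands of the RefSeq promoter windows (GRCm38.p6), each 250 bases before to 50 bases after a start site. The windows are shown because the genes are grouped here as targets of 1 factor. Entries existed for 8 of the 10 genes, with 3 start sites for Txnrd1. A match lay in the window of Nfe2l2, Gclm, 1 of the 3 Txnrd1 starts, Srxn1, Prdx1 and, with 2 matches, Ugdh, and none in those of Keap1 and Nqo1. Of all 32851 windows of the same length, 12.39% held such a match, so a match is a description and not a site. The Prdx1 match overlapped a match to the AP-1 motif TGANTCA, which 7.81% of windows held, and the others did not. Capitals mark the match in these lines, written 5′ to 3′ along the gene's strand.
Gclm, chr3:122245407-122245447, plus strand: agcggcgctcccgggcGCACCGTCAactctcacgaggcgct
Txnrd1, chr10:82859098-82859138, plus strand: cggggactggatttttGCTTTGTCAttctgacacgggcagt
Ugdh, chr5:65435950-65435990, minus strand: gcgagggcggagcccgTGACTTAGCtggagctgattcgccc
Ugdh, chr5:65435912-65435952, minus strand: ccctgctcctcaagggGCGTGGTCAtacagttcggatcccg
Nfe2l2, chr2:75704879-75704913, minus strand: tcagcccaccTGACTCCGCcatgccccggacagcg

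Values are log2 GCRMA values, which the authors' method corrects for background and normalizes between arrays, and 1 unit is a doubling. Values under about 4 lie near the background floor, and 15 of the 19 member probe sets had a mean of at least 4 over all 10 arrays and were tested. Array medians lay between 2.62 and 2.67. The median over all 45101 probe sets, a background level, was 2.66 ± 0.015 (SD, n = 5) in APOE3 and 2.63 ± 0.0091 (SD, n = 5) in APOE4 arrays (exact permutation p = 0.00794, two-sided). Over the tested probe sets alone the order was the opposite. Their median ran from 7.05 to 7.13 in APOE3 and from 7.15 to 7.16 in APOE4, so every APOE4 array was above every APOE3 array. RNA integrity, read as the 3′ minus 5′ signal of the Actb controls, was at 2.68 ± 0.37 and 2.64 ± 0.20 log2 (exact permutation p = 0.881, two-sided, n = 5 each). Mouse Apoe read 0.96 to 1.19 on all arrays, a background level, as both groups lack the gene. Of 14 hepatocyte markers on the array, 13 had a mean of at least 4, all but Ass1 (3.54 on the 1 probe set used for it). Their mean level per array ran from 12.57 to 13.29 in APOE3 and from 12.79 to 13.16 in APOE4. Cholangiocyte markers were under 4 for all 5 on the array.

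None of the 15 tested member probe sets passed the adjusted threshold, against 12 of all 14732 tested (0.0815%). In 0 of the 15 was the unadjusted p in limma under 0.05, against 1178 of all tested (8%), and in 0 did the 5 arrays of one genotype lie wholly on one side of the other 5, against 297 of all tested (2.02%). The median log2 difference, APOE4 minus APOE3, was 0.07 over the 15 and 0.05 over all tested probe sets. Of the 15, 10 were positive and 5 negative, where 60.9% of all tested were positive. The lowest adjusted p among the members was 0.634. These counts do not show that the genotypes were alike: the 95% intervals below give the differences that the 10 arrays leave possible. In bulk liver, fewer cells of a type and less RNA per cell cannot be told apart.

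**Figure D1:**
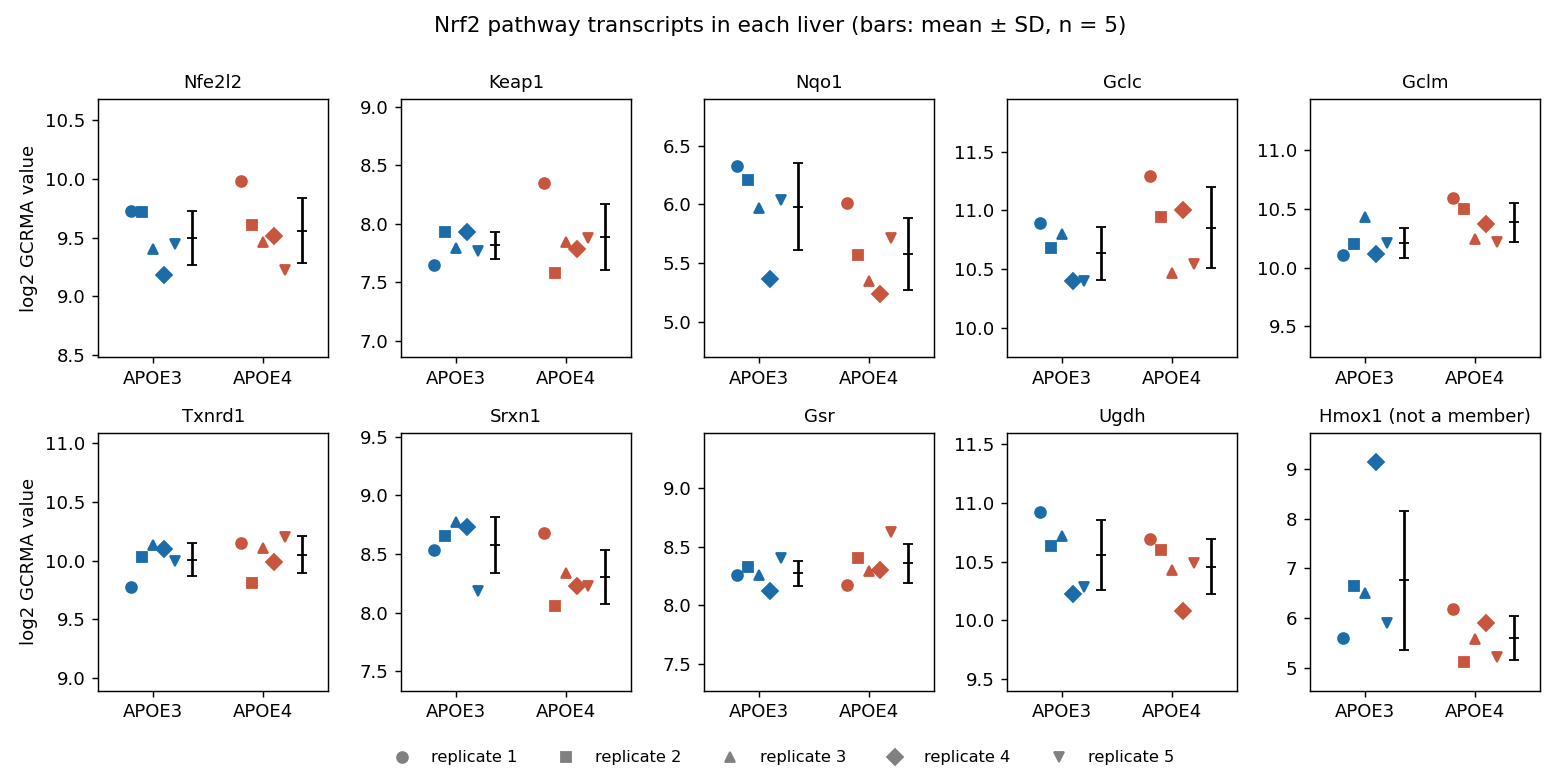
Log2 GCRMA value of each liver for the brightest probe set of 9 members and for Hmox1, with replicates 1 to 5 of APOE3 (blue) and APOE4 (red) as separate symbols and black bars for mean ± SD (n = 5); all panels span 2.2 log2 units except Hmox1, which spans 5.2. The genotypes overlap in all 10 panels, and APOE3 replicate 4 stands lowest in APOE3 for Nfe2l2 and Nqo1 and highest for Hmox1 at 9.15.

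Nfe2l2, the factor itself, differed by less than the spread between animals on its brighter probe set. It read 9.72, 9.72, 9.41, 9.18 and 9.45 in APOE3 replicates 1 to 5 and 9.98, 9.61, 9.46, 9.51 and 9.22 in APOE4 replicates 1 to 5. The highest value was in an APOE4 liver and the lowest in an APOE3 liver, and both genotypes held values from 9.22 to 9.72. APOE4 minus APOE3 was 0.06 log2 (SE 0.15, 95% interval -0.28 to 0.40), and its sign turned without APOE3 replicate 4 (-0.02) or APOE4 replicate 1 (-0.04).

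A dimmer Nfe2l2 probe set read otherwise. It was at 5.84, 5.41, 6.20, 4.71 and 6.43 in APOE3 and at 4.88, 5.31, 5.34, 5.26 and 4.76 in APOE4. Of the APOE3 livers, 4 were above every APOE4 liver, and APOE3 replicate 4 was below them all. The mean difference was -0.61 log2 (SE 0.29, 95% interval -1.24 to 0.02, adjusted p = 0.634 in limma), the largest in size among the 15. Without APOE3 replicate 4 it was -0.86 (unadjusted p = 0.00236, adjusted p = 0.474 in limma), the largest in size when 1 animal was left out. The smallest was -0.43, without APOE3 replicate 5 (unadjusted p = 0.145, adjusted p = 0.722 in limma). Whether the probe sets differed from each other was asked per animal, after the values had been seen. The dimmer minus the brighter one was -3.78 ± 0.65 in APOE3 and -4.45 ± 0.39 in APOE4 (SD, n = 5 each; exact permutation p = 0.111, two-sided, 0.666 adjusted over the 6 genes with 2 tested probe sets). In the other 5 genes that p was at least 0.278.

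Keap1, the adaptor that marks Nrf2 for degradation, read 7.65, 7.93, 7.80, 7.93 and 7.77 in APOE3 and 8.34, 7.58, 7.84, 7.78 and 7.88 in APOE4. APOE4 replicate 1 was the highest of all 10 and APOE4 replicate 2 the lowest, so the APOE3 range lay inside the APOE4 range. The difference of the means was 0.07 log2 (SE 0.14, 95% interval -0.23 to 0.37), and -0.04 without APOE4 replicate 1. A second probe set near the floor, between 3.88 and 4.78 on all arrays, was at 0.15 (SE 0.15).

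Nqo1, the NAD(P)H quinone reductase often used as the marker of Nrf2 activity, was lower on average in APOE4. It read 6.33, 6.21, 5.97, 5.36 and 6.04 in APOE3 and 6.01, 5.57, 5.34, 5.24 and 5.72 in APOE4. APOE3 replicate 4 lay among the low APOE4 livers and APOE4 replicate 1 among the APOE3 livers, and the remaining 4 APOE3 values were above the remaining 4 APOE4 values. The means were 5.98 ± 0.37 and 5.58 ± 0.31 (SD, n = 5 each). The log2 difference of -0.40 (SE 0.20) is 1.32-fold lower, its 95% interval ran from -0.84 to 0.03, and the adjusted p was 0.637 in limma. It was -0.56 without APOE3 replicate 4 (adjusted p = 0.558 in limma) and -0.32 without APOE3 replicate 1 (adjusted p = 0.576 in limma).

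The means of both subunits of the enzyme that starts glutathione synthesis were higher in APOE4, and neither passed. Gclc, the catalytic subunit of glutamate-cysteine ligase, which catalyses the first and limiting step, read 10.89, 10.68, 10.80, 10.40 and 10.40 in APOE3 and 11.30, 10.94, 10.46, 11.00 and 10.54 in APOE4. Of the APOE4 livers, 3 lay above every APOE3 liver, and replicates 3 and 5 lay within the APOE3 range. Its log2 difference was 0.22 (SE 0.17, 95% interval -0.16 to 0.59). The second Gclc probe set gave 0.22 as well (SE 0.12, 95% interval -0.06 to 0.49), with APOE3 between 10.40 and 10.90 and APOE4 between 10.63 and 11.08.

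Gclm, the modifier subunit that lowers the feedback inhibition of Gclc by glutathione, read 10.11, 10.20, 10.43, 10.12 and 10.21 in APOE3 and 10.59, 10.50, 10.24, 10.38 and 10.21 in APOE4. The values of APOE4 replicates 1 and 2 exceeded all of APOE3. Its mean difference was 0.17 log2 (SE 0.11, 95% interval -0.06 to 0.41), while the dimmer probe set gave 0.08 (SE 0.14). The adjusted p of the brighter probe sets in limma was 0.763 for Gclc and 0.701 for Gclm.

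Gsr, the reductase that returns oxidised glutathione to its thiol form with NADPH, was at 8.26, 8.32, 8.26, 8.12 and 8.40 in APOE3 and at 8.18, 8.40, 8.29, 8.30 and 8.62 in APOE4. APOE4 replicate 5 was the highest of all 10, and the other 4 APOE4 livers were within the APOE3 range. The log2 difference was 0.09 (SE 0.10, 95% interval -0.14 to 0.31) and that of the dimmer probe set 0.18 (SE 0.19). On the dimmer probe set APOE4 replicate 5, at 8.26, was again the highest of all arrays. Without this animal the differences were 0.02 and 0.03, and without APOE3 replicate 2 the dimmer one was 0.05.

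In the thioredoxin system, Txnrd1, the cytosolic thioredoxin reductase, showed the smallest difference among the brightest probe sets of the 9 genes. It read 9.77, 10.03, 10.13, 10.10 and 9.99 in APOE3 and 10.15, 9.81, 10.10, 9.98 and 10.20 in APOE4, with the lowest value in APOE3 replicate 1 and the next lowest in APOE4 replicate 2. APOE4 minus APOE3 was 0.04 log2 (SE 0.11, 95% interval -0.19 to 0.28), and -0.01 with arrays centred on their medians or without APOE3 replicate 1. Both remaining Txnrd1 probe sets stayed at or under 2.75 on all 10 arrays and were not tested, so they carry no measurable level.

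Srxn1, sulfiredoxin, which repairs overoxidised peroxiredoxins with thiol as reductant, was lower on average in APOE4. It read 8.53, 8.66, 8.78, 8.73 and 8.18 in APOE3 and 8.68, 8.06, 8.34, 8.22 and 8.23 in APOE4. Apart from APOE3 replicate 5 and APOE4 replicate 1, which traded places, APOE3 lay above APOE4. Its log2 difference was -0.27 (SE 0.14, 95% interval -0.59 to 0.05, adjusted p = 0.670 in limma), 1.21-fold lower. The other 3 Srxn1 probe sets were near the floor, with mean differences of -0.07, -0.08 and -0.18, and 2 of them were under 4 on 6 or more arrays and not tested. The brightest probe set is of a type (suffix _s_at) whose probes may match transcripts of more than 1 gene, as is the second one of Gclc.

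Ugdh, UDP-glucose dehydrogenase, which makes the UDP-glucuronate used to conjugate drugs and bilirubin, read 10.92, 10.64, 10.72, 10.22 and 10.28 in APOE3 and 10.69, 10.60, 10.43, 10.08 and 10.49 in APOE4. The genotypes overlapped over most of their range. A mean difference of -0.10 log2 (SE 0.16, 95% interval -0.45 to 0.25) was left, with the lowest value of each genotype in its replicate 4. It shrank to -0.0049 without APOE4 replicate 4 and to -0.0086 without APOE3 replicate 1.

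**Figure D2:**
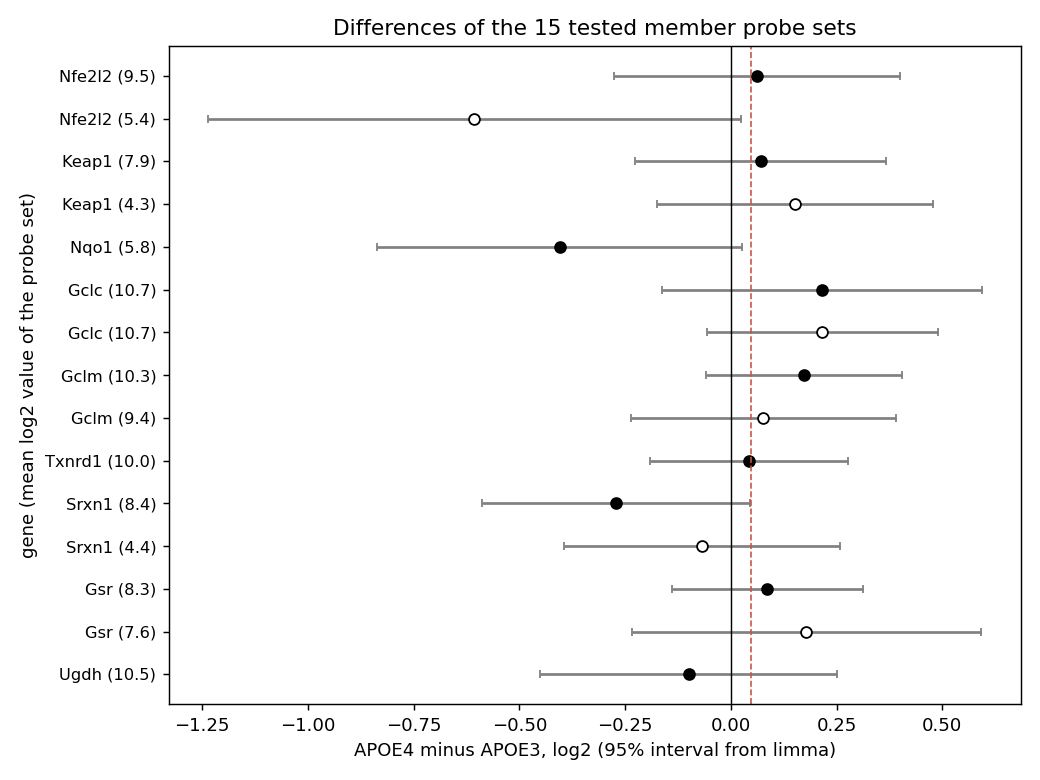
Log2 difference, APOE4 minus APOE3, of the 15 tested member probe sets with 95% intervals from limma; filled points are the brightest probe set of a gene, open points the others, numbers in brackets the mean log2 value, and the red dashed line the median of all tested probe sets (0.05). All 15 intervals include 0, and Nqo1, Srxn1 and the dimmer Nfe2l2 probe set lie farthest to the left.

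Some livers were high or low in several members at once. Measured from the mean of its own genotype, APOE4 replicate 1 was the highest APOE4 liver in 7 of the 9 genes, with a mean deviation of 0.28 log2, and the lowest in 1, Gsr. APOE3 replicate 4 was the lowest APOE3 liver in 5 of 9, Nfe2l2, Nqo1, Gclc, Gsr and Ugdh, with a mean deviation of -0.15. The median deviation of all tested probe sets was -0.01 on the former array and -0.02 on the latter, while the upper quartile of all values was highest on the former (5.36, against 5.22 to 5.31 on the other arrays). How often these arrays were highest or lowest over all tested probe sets was not counted. Whether these counts are particular to the members therefore cannot be said. APOE4 replicate 1 also had the highest mean level of all 10 livers for stellate cell and fibroblast markers (8.37, against 7.32 to 8.11). Those markers were split: of 11 tested, 5 were highest there of all 10 livers and 3 were lowest. Its mean was also the highest of all for the 2 tested lymphocyte markers (6.62, against 5.19 to 6.60), of which 1 was highest there. For Kupffer cell and macrophage markers its mean was the highest of APOE4 (8.74), with 11 of 17 genes highest in that genotype and 1 lowest. The part of these cells in its member values was not tested. APOE4 replicate 1 and APOE3 replicate 4 are also the livers whose Nqo1 values lay among those of the other genotype.

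**Figure D3:**
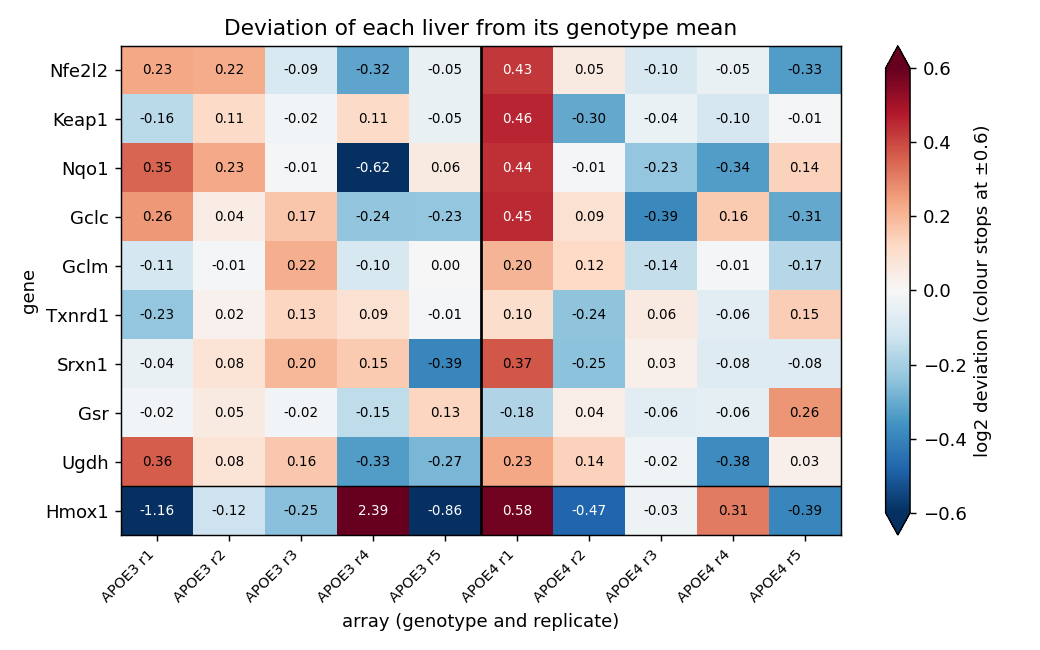
Log2 deviation of each of the 10 livers from the mean of its genotype, for the brightest probe set of the 9 members and for Hmox1 below the line, with red above and blue below the mean. APOE4 replicate 1 is red in 8 of 9 members, and APOE3 replicate 4 is at -0.62 for Nqo1 and 2.39 for Hmox1.

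Hmox1, heme oxygenase, which is induced by Nrf2 and by heme and is abundant in macrophages that clear red cells, stood high in APOE3 replicate 4, where several members stood low. It read 5.60, 6.64, 6.51, 9.15 and 5.90 in APOE3 and 6.18, 5.12, 5.57, 5.91 and 5.21 in APOE4. Within APOE4 it was highest in replicate 1, the APOE4 liver that was also highest in 7 of the 9 members. The log2 difference was -1.16 (SE 0.56, adjusted p = 0.637 in limma), and -0.57 without APOE3 replicate 4. That liver had the lowest Nqo1 of APOE3 and the highest Hmox1 of all 10. Kupffer cell and macrophage markers (17 of 20 with a mean of at least 4, all but Itgam, Ccr2 and Spi1) averaged 9.33 log2 there, against 8.05 to 8.59 in the remaining APOE3 livers and 7.88 to 8.74 in APOE4. Of these 17 genes 11 were highest there of all 10 livers and 1 was lowest. Marco, a macrophage scavenger receptor gene, was at 9.99 there, and Cd163, the macrophage receptor for hemoglobin bound to haptoglobin, was lowest at 6.37, with 8.22 to 9.36 elsewhere. Clec4f, a defining Kupffer cell gene, was at 9.56 there, below APOE4 replicates 1 (9.60) and 4 (9.64). The neutrophil genes S100a8 and S100a9, the only 2 of 6 on the array to reach a mean of 4 (Ngp, Camp, Mpo and Elane did not), averaged 6.21 there, against 4.60 to 5.60 in the other APOE3 and 4.05 to 4.95 in APOE4 livers (between genotypes, exact permutation p = 0.0397, two-sided, 0.278 adjusted over 7 marker lists, n = 5 each). The part of these cells in the Hmox1 and Nqo1 values was not tested.

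Other genes of the pathway, taken from 7 lists and described by 1 probe set each, did not pass either. The lists name 164 genes, of which 147 had a probe set of their own and 128 were tested. None was past the adjusted threshold in either direction in limma, and 11 (8.59%) had an unadjusted p under 0.05, 6 higher and 5 lower, where all tested probe sets gave 8%, 5.53% higher and 2.46% lower. Their median log2 difference was -0.01, with 62 positive and 66 negative. Over all tested probe sets the median was 0.05 and 60.9% were positive, the baseline for the counts of each list below.

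Among 19 tested regulators of Nrf2, such as its partner Mafg, rivals and ligase parts, 10 were positive and 9 negative, with a median of 0.04. The probe sets of Maff, Mafk, Nfe2l3 and the ligase part Rbx1 had means under 4 and were not tested. Pgam5, a mitochondrial phosphatase that binds Keap1, had the smallest p (7.43 ± 0.24 in APOE3, 7.73 ± 0.14 in APOE4, SD, n = 5 each; adjusted p = 0.588 in limma). The coactivator gene Crebbp was at 0.34 (SE 0.16) and the kinase gene Gsk3b at 0.25 (SE 0.14).

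Of 34 further targets, 13 were positive and 21 negative, with a median of -0.03 and a span from -1.16 for Hmox1 to 0.67. The glucuronosyltransferase gene Ugt2b35 was at 10.74 ± 0.21 in APOE3 and 10.46 ± 0.13 in APOE4 (SD, n = 5 each; adjusted p = 0.588 in limma). The basolateral conjugate exporter gene Abcc3 was at -0.20 (SE 0.09), and the carboxylesterase gene Ces2g at 0.45 (SE 0.21). Txn1, thioredoxin itself, was at 12.58 ± 0.11 and 12.66 ± 0.13 (SD, n = 5 each), a log2 difference of 0.08 (SE 0.09). Slc7a11, the cystine importer often induced with Nqo1, stayed between 1.87 and 2.17 on all 10 arrays, at background.

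Glutathione synthesis and use had 9 of 15 genes positive and a median of 0.14. Ggct, the γ-glutamylcyclotransferase of glutathione breakdown, had the smallest p of all pathway genes. It read 8.25, 8.02, 7.88, 7.94 and 7.84 in APOE3 and 8.72, 8.05, 8.55, 8.53 and 8.25 in APOE4, which overlap only through APOE3 replicate 1 on one side and APOE4 replicates 2 and 5 on the other side. Its log2 difference was 0.44 (SE 0.14, adjusted p = 0.528 in limma). The glyoxalase gene Glo1 was at 0.22 (SE 0.10) and Slc3a2, the heavy chain of amino acid transporters that include the cystine importer, at 0.34 (SE 0.15).

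The thioredoxin and peroxiredoxin list had 13 of 20 genes positive and a median of 0.08. Sesn1, a stress-induced sestrin, was at -0.33 (SE 0.14), the endoplasmic reticulum disulfide isomerase gene Txndc5 at 0.51 (SE 0.23) and Txndc17, a small thioredoxin-like protein gene, at -0.19 (SE 0.09). For NADPH supply 7 of 15 were positive with a median of -0.0022; Nnt, the mitochondrial transhydrogenase, was at -0.31 (SE 0.11, adjusted p = 0.580 in limma), Mthfd1 at -0.19 (SE 0.11) and Pgls at 0.25 (SE 0.16). For UDP-glucuronate supply and use 5 of 14 were positive with a median of -0.05; the nucleotide sugar transporter gene Slc35b1 was at 0.43 (SE 0.23) and the β-glucuronidase gene Gusb at -0.14 (SE 0.09). In the list of heme and oxidant-linked genes 6 of 15 were positive with a median of -0.02; the metallothionein genes Mt1 and Mt2 were at -0.67 (SE 0.25) and -0.78 (SE 0.33), and Hmox2, the constitutive heme oxygenase, at 0.25 (SE 0.11).

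**Figure D4:**
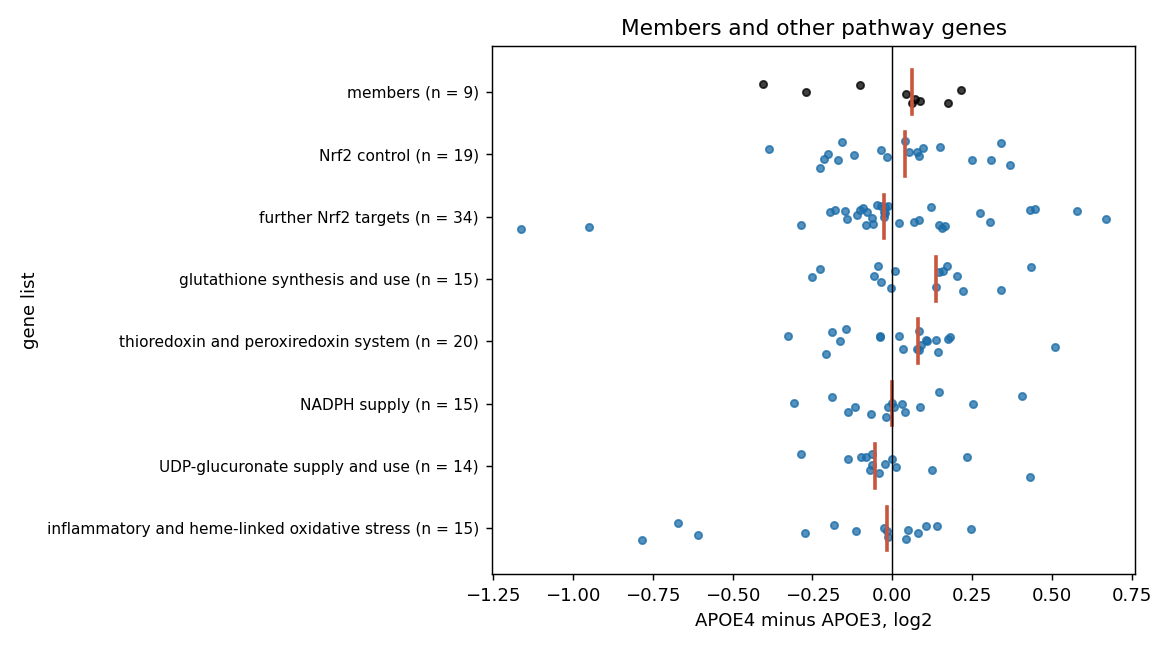
Log2 difference, APOE4 minus APOE3, of each gene with 1 probe set per gene: the 9 members in black and the tested genes of 7 pathway lists in blue, each with its median as a red bar. The medians lie between -0.05 and 0.14, and each list holds genes on both sides of 0.

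The genes that followed Nqo1 most closely over the 10 livers, with each genotype's mean taken out, were not members. Among 13350 tested probe sets with 1 symbol, Pearson's r with Nqo1 was highest for Tubgcp4 (0.978), Sec61b (0.930), Idi1 (0.924), Vrk1 (0.917) and Ncaph2 (0.917). Of the members, Ugdh was at 0.783 and Nfe2l2 at 0.719, and the others lay between -0.140 for Txnrd1 and 0.524 for Gclc. These values describe 10 arrays, and the first 5 were picked as the highest of 13350.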

How the data were processed

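The authors deposited 1 log2 value per probe set and array. Per the submitters' processing notes these come from GCRMA 2.12.1 (R 2.7.1), a method that models background from the GC content of probes, normalizes between arrays and can understate changes near the floor. Scanner files were not used here. Groups came from the sample titles. Leaving out 64 controls, 14732 probe sets had a mean of at least 4 over all arrays and were tested for APOE4 minus APOE3 in limma 3.58.1 under R 4.3.3 (lmFit, eBayes, two-sided), Benjamini-Hochberg adjusted over all of them, threshold 0.05. Members and lists were chosen with earlier results of these data known, so list counts are descriptions. Named were all members, up to 3 genes per list with the smallest p, Hmox1, Txn1 and Slc7a11, and the 5 genes most like Nqo1; Marco, Cd163, Clec4f, S100a8 and S100a9 were chosen after their values were seen. Of array probe sets 34958 carried 1 symbol, 932 several and 9211 none. Promoters are from RefSeq, GRCm38.p6.

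The fit was tested on simulated data. Precision is limited by the number of arrays, with a median SE of 0.148 log2 for the members. Batches or scan dates were not in the labels and were not tested. Nothing in the labels links replicate numbers between genotypes, and the main fit has no block. Alternatives were other filters, variance settings, array weights, rescaling, a floor at 4, 1 probe set per gene, the replicate block and leaving out each animal. Figures used Python 3.11.15 with matplotlib 3.10.9.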

Additional observations from a re-analysis of the deposited data

Results flagged for a closer look

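Of 38 groups of 5 values, 2 per member probe set, plus 2 for Hmox1, 2 held an animal far from the others by Dixon's criterion; chance gives about 1 in 20. APOE4 replicate 5 was at 8.26 on the dimmer Gsr probe set, against 7.44 to 7.64 in the other APOE4 livers, and it was also the highest of the genotype on the brighter one. APOE3 replicate 4 was at 2.36 on a Txnrd1 probe set, against 2.51 to 2.57 in the other APOE3 livers, all at background. Hmox1 in APOE3 replicate 4 did not meet the criterion.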

How the results depend on the processing

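No member probe set and no pathway gene that was tested passed the adjusted threshold under any of the 9 alternatives that kept all animals or without any 1 animal. The member probe sets tested were 19 with no filter, 11 with a filter at a mean of 6 and 9 with 1 probe set per gene. The filter at 6 left out Nqo1 and the dimmer Nfe2l2 probe set, so it says nothing about them. Member probe sets with an unadjusted p under 0.05 were 0 in the main setting. They were 2 with array weights (Nqo1 and the dimmer Nfe2l2 probe set), 1 with renewed quantile normalization (Nqo1), 2 with arrays centred (Nqo1 and the dimmer Nfe2l2 probe set), 1 with the replicate block (Nqo1, -0.40, unadjusted p = 0.00873, adjusted p = 0.50 in limma) and 0 to 2 without 1 animal. Of all 14732 tested probe sets, 1440 had such a p with array weights and 1048 with renewed quantile normalization. With arrays centred 1066 had one, and with the replicate block 1261. Without 1 animal the count over all tested probe sets ran from 913 to 1682. Across all tested probe sets 12 passed. The count was 15 with no filter (of 45037 tested), 5 with a filter at a mean of 6 (of 9648) and 7 with 1 probe set per gene (of 8535). Without 1 animal 8 to 14 passed. The median difference of the member probe sets was 0.07, ranging from 0.01 to 0.08 over the 9 alternatives and from 0.02 to 0.10 without 1 animal. Centring moved the median of all tested probe sets from 0.05 to -0.01 and that of the member probe sets from 0.07 to 0.01. It turned Txnrd1 to -0.013. The cause of sign changes was not tested: leaving out 1 animal turned the sign of the brighter Nfe2l2 probe set (-0.044 to 0.15), Txnrd1 (-0.014 to 0.10), the brighter Keap1 probe set (-0.044 to 0.15), the dimmer Gclm probe set (-0.0053 to 0.16) and the dimmer tested Srxn1 probe set (-0.19 to 0.012). Nqo1 stayed between -0.56 and -0.32, the brighter Srxn1 probe set between -0.37 and -0.21 and Gclc between 0.10 and 0.31. Deviations of same-numbered animals correlated at -0.079 to 0.414, with 2 of 5 animals closest to their own number, so the numbers were not taken to pair animals. Near the floor, the dimmer probe sets of Keap1, Srxn1 and Txnrd1 add little to their brightest ones.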
